A study of Mus musculus with 4 samples.

Results

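Markers of Müller glia and astrocytes, the supporting cells of the retina, were followed in mouse lens epithelia after UVB irradiation. The 8 marker genes were Glul, Slc1a3, Apoe, Abca8a, Aqp4, Kcnj10, Gfap and Car14, taken from a list of glial genes and found by symbol among the 19938 genes that had at least 1 probe set to themselves. They had 9 probe sets of 28944 on the arrays, since Glul had 2, and no probe set of these genes was shared with another gene. For Glul, the probe set with the higher mean over the 4 arrays was taken as the main one. Lens epithelia came from 8-week-old male C57BL/6 mice. Under anesthesia, UVB was given at 30 mJ/cm2 to the right eye, with the foil-shielded fellow eye serving as control. Epithelia were dissected the next day, after removal of retina, lens cortex and nucleus. Each of 2 independent experiments gave 1 array per condition, while the number of mice behind an array, of the 3 stated per animal experiment, remains not given in the sources used here.

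Müller cells span the retina from the outer limiting membrane to the vitreous. They take up glutamate released by neurons and turn it into glutamine, move potassium and water out of the tissue, hydrate carbon dioxide and supply lipids. Retinal astrocytes lie among the nerve fibers at the inner surface and are rich in intermediate filaments. Neither cell belongs to the lens epithelium, and the marker genes are not exclusive to glia. Apoe, for example, is also made by macrophages. In RNA of a whole tissue piece, fewer cells of a type and less RNA per cell cannot be told apart.

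The labelled tissue was checked first. All 8 listed genes of lens epithelium, among them Foxe3, a lens transcription factor with log2 signals between 11.13 and 11.28, lay above the signals of genes that should be silent in the eye. That reference was the 95th percentile of 1210 probe sets for olfactory and vomeronasal receptors, which lay between 6.32 and 6.38 on the 4 arrays. All 8 glial markers also lay above it on every array. Probes differ in affinity, so this comparison gives a floor and no order between genes. The deposited log2 signals had medians between 7.19 and 7.22, and the sum of both arrays of experiment 1 equaled that of experiment 2 within 0.02 for 100% of the probe sets. By that equality, levels cannot be compared between experiments, and a gene that moved the same way in both experiments had no overlap between control and UVB by construction. The values below are therefore read as differences within an experiment.

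After UVB, 4 of the 8 markers were higher in both experiments, namely Glul, Slc1a3, Apoe and Abca8a, by log2 fold changes between 0.27 and 0.47 in the mean. Car14 was lower in both, by a small amount, and Aqp4, Kcnj10 and Gfap had differences of opposite sign in the experiments. For comparison, 24.0% of all probe sets were higher in both experiments and 37.4% were lower in both. None of the 8 passed the thresholds of the study's methods, over 1.8-fold with an unadjusted p under 0.01. These were passed by 0.0622% of all probe sets in the upward direction and by 0% in the downward one. The study selected its genes with Transcriptome Analysis Console and the p-values here came from another fit, so these shares are not the study's own. The fit was limma's with the experiment as a block, because both eyes of the same mice were compared, and p-values were adjusted over all probe sets. At an adjusted p of 0.05 it called 0 of 28944 probe sets, or 0%. An unadjusted p under 0.05 was reached by 0 of the 8 markers at their main probe sets. The other Glul probe set had an unadjusted p of 0.0413 from limma. Of all probe sets, 13.4% had an unadjusted p under 0.05 (5.69% higher and 7.71% lower). A fit without the block counts 2 residual degrees of freedom in place of 1. With experiment means equal in the deposited values, it takes the spread as too small. In that fit, 0 of the 8 had an adjusted p under 0.05, beside 6.62% of all probe sets as higher and 11.0% as lower. An unadjusted p under 0.05 was then reached by 1 of the 8, Glul, and by 38.1% of all probe sets.

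**Figure D1:**
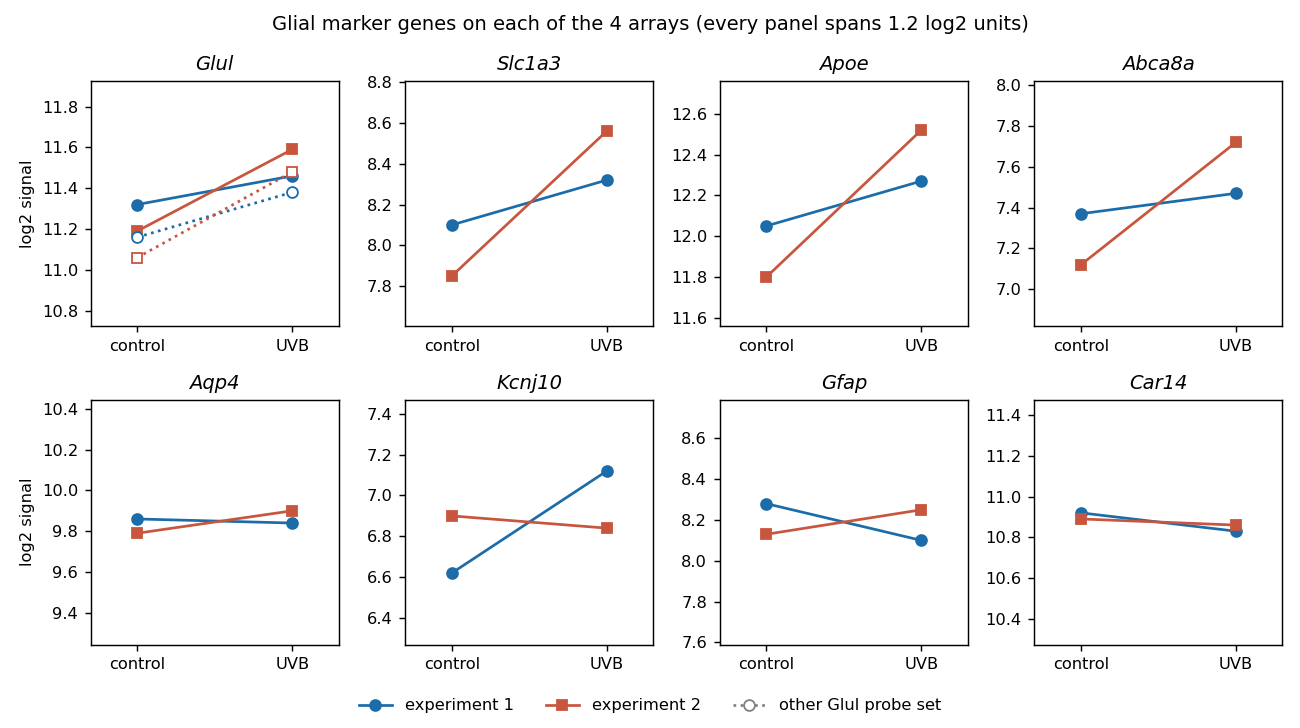
Log2 signal of the 8 glial marker genes on each array, with 1 panel per gene, control at left and UVB at right. Lines join both eyes of an experiment (circles, experiment 1; squares, experiment 2), dotted lines with open symbols are the other Glul probe set, and the lines of an experiment pair cross midway because experiment means were equal in the deposited values. Both lines go up for Glul, Slc1a3, Apoe and Abca8a, and more steeply in experiment 2.

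The glutamate-handling pair was higher in UVB-irradiated epithelia. Slc1a3, the glutamate transporter of Müller cells and astrocytes, had log2 signals of 8.10 in control and 8.32 in UVB in experiment 1, and of 7.85 and 8.56 in experiment 2. The difference in experiment 2 was the larger one. The differences were 0.22 and 0.71, which correspond to 1.16-fold and 1.64-fold. Their mean was 0.47 (standard error 0.17, 95% interval −0.20 to 1.13), and limma's unadjusted p was 0.0999 (adjusted p = 0.385). The spread between both experiments was thus wide enough for the interval to include 0, although 0.929% of all probe sets had a larger mean change.

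Glul encodes glutamine synthetase, which joins ammonia to the glutamate that Slc1a3 brings in. Its main probe set read 11.32 in control and 11.46 in UVB in experiment 1, and 11.19 and 11.59 in experiment 2. The irradiated eye was higher by 0.14 and by 0.40, again with the larger difference in experiment 2. The mean log2 fold change was 0.27 (standard error 0.092, 95% interval −0.097 to 0.64), at an unadjusted p of 0.0899 from limma (adjusted p = 0.371). The other Glul probe set read 11.16 and 11.38 in experiment 1, and 11.06 and 11.48 in experiment 2. It gave differences of 0.22 and 0.42, and a mean of 0.32 (standard error 0.073, 95% interval 0.029 to 0.61). Its unadjusted p was 0.0413 from limma (adjusted p = 0.357). Both probe sets thus had the same direction in both experiments. Among the probe sets numbered next to the main one, 26 of 27 with a known chromosome were annotated to genes of chromosome 11, whereas Glul lies on chromosome 1 (RefSeq, GRCm38.p6). For the other probe set, 29 of 31 such neighbors were on chromosome 1. The sequence that the main probe set matches was not given in the sources used here, so that its assignment to Glul is uncertain and both are given.

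Of 9 further measured genes of glutamate and glutamine handling, 7 were higher in both experiments and 1 was lower in both, with a median log2 fold change of 0.16 and medians of 0.15 and 0.18 within the experiments. None passed the thresholds, and 4 had an unadjusted p under 0.05 as higher. Slc1a1, a glutamate transporter of neurons and epithelia, was higher by 0.95 in experiment 1 and by 0.38 in experiment 2. It was not among these 4, at an unadjusted p of 0.0675 from limma. Its signal lay above the array median on 1 of the 4 arrays, and its control in experiment 1, at 6.53, close above the receptor reference. Slc1a2, the glutamate transporter most abundant in brain astrocytes, had nearly equal differences of 0.36 and 0.38. Its controls read 8.20 and 8.19 and its irradiated arrays 8.56 and 8.57. Its mean of 0.37 had an unadjusted p of 0.00407 from limma. Slc1a1 thus had its larger difference in experiment 1, and Slc1a2 had about the same in both, unlike the values of Slc1a3 and Glul. Glud1, the mitochondrial glutamate dehydrogenase, named after its value was seen, had differences of −0.01 and −0.03.

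The lipid-handling pair had values close to those of Slc1a3. Apoe, the apolipoprotein through which glia and macrophages supply cholesterol and other lipids, had log2 signals of 12.05 in control and 12.27 in UVB in experiment 1. In experiment 2 they were 11.80 and 12.52. Both differences were positive, 0.22 and 0.72, or 1.16-fold and 1.65-fold. The mean was 0.47 (standard error 0.17, 95% interval −0.21 to 1.15), with an unadjusted p of 0.101 from limma (adjusted p = 0.386). Apoe had one of the 2 largest mean changes among the 8 markers, and 0.909% of all probe sets exceeded it.

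Abca8a belongs to the A subfamily of ATP-binding cassette transporters, many of which move lipids. Its log2 signals were 7.37 in control and 7.47 in UVB in experiment 1, and 7.12 and 7.72 in experiment 2. The larger part of its mean change came from experiment 2, with differences of 0.10 and 0.60. The mean was 0.35 (standard error 0.17, 95% interval −0.33 to 1.03) at an unadjusted p of 0.168 from limma. Its signal lay above the array median on 3 of the 4 arrays.

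Among 12 further measured lipid-transport genes, 7 were higher and 3 lower in both experiments, and the median log2 fold change was 0.077. None passed the thresholds or had an unadjusted p under 0.05. Lrp2, the endocytic receptor megalin, was higher by 0.18 and 0.40, and Apod, a lipocalin that is also an apolipoprotein, by 0.07 and 0.21. The signal of Apod lay below the array median on all 4 arrays and close above the receptor reference. Abca8b, a close relative of Abca8a named after its value was seen, had differences of 0.18 and 0.08. Abca1, which loads cholesterol onto apolipoproteins such as Apoe and was named in the same way, had differences of −0.06 and −0.02. The changes of Apoe and Abca8a were thus larger than those of every listed gene of their group in the mean.

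**Figure D2:**
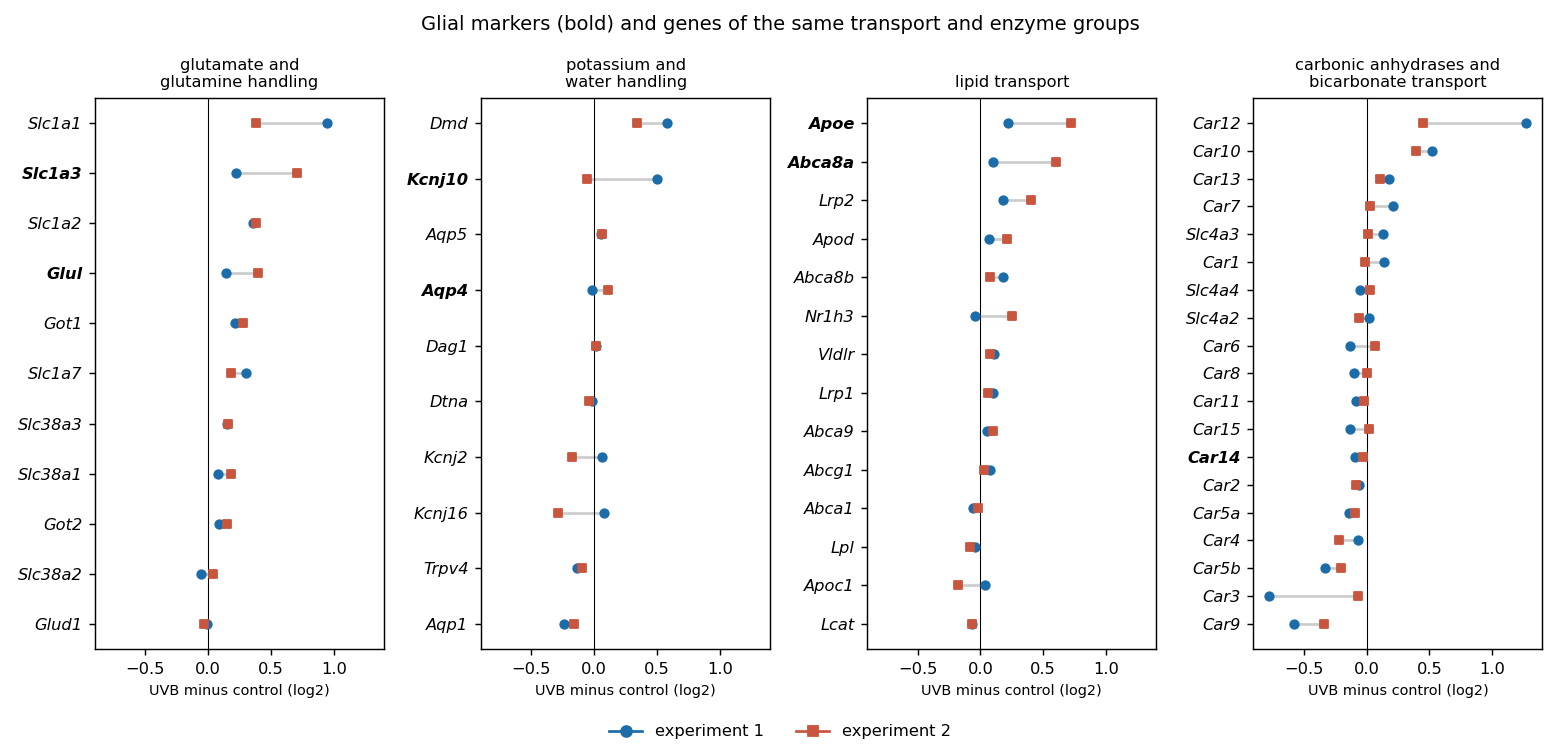
UVB minus control in log2 units for the glial markers (bold) and the listed genes of the same function, as circles for experiment 1 and squares for experiment 2, with genes sorted by the mean of both. Slc1a3, Apoe and Abca8a lie near the top of their groups with the square to the right of the circle, Kcnj10 has its points on either side of 0, and Car14 lies just under 0.

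The channels of potassium and water had no direction common to both experiments. Aqp4, the water channel of glial endfeet, had log2 signals of 9.86 in control and 9.84 in UVB in experiment 1, and of 9.79 and 9.90 in experiment 2. The differences had opposite signs, −0.02 and 0.11. Its mean was 0.045 (standard error 0.052, 95% interval −0.16 to 0.25). Kcnj10, the inwardly rectifying potassium channel that sits beside Aqp4 in Müller cells, had log2 signals of 6.62 and 7.12 in experiment 1 and of 6.90 and 6.84 in experiment 2. It was the only one of the 8 markers that was higher after UVB in experiment 1 and lower in experiment 2, by 0.50 and −0.06. The mean of 0.22 had a standard error of 0.19 and a 95% interval from −0.54 to 0.98. Its signal lay below the array median on all 4 arrays and close above the receptor reference, where a change is hard to measure.

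Of 8 further measured genes of potassium and water handling, 3 were higher and 3 lower in both experiments, around a median log2 fold change of −0.045. Dmd, which encodes dystrophin and, from an internal promoter, the short product that anchors both channels in Müller cells, was higher by 0.58 and 0.34. Aqp1, a water channel of epithelia, was lower by 0.24 and 0.16 in the log2 signal. Neither passed the thresholds, at unadjusted p-values of 0.0273 and 0.0292 from limma. Dag1, the dystroglycan gene of the same anchoring complex, named after its value was seen, had differences of 0.01 in both experiments.

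Gfap, the intermediate filament of astrocytes that Müller cells make when the retina is injured, had no common direction. Its log2 signals were 8.28 in control and 8.10 in UVB in experiment 1, and 8.13 and 8.25 in experiment 2. The irradiated eye was lower by 0.18 in the first and higher by 0.12 in the second. The mean was −0.03 (standard error 0.11, 95% interval −0.45 to 0.39), and 53.4% of all probe sets had a larger value. On the list of 13 genes of reactive glia and acute response, 8 were higher and 1 lower in both experiments, with median differences of 0.02 and 0.17. None passed the thresholds. Lcn2, an iron-binding acute phase protein, was higher by 0.31 and 1.57, and Serpina3n, a protease inhibitor, by 0.02 and 1.15. Their larger changes were in experiment 2, as in Slc1a3 and Apoe. Vim and Nes, the other intermediate filament genes of glia and named after their values were seen, stayed within 0.03 of 0 in each experiment. Vim is also a filament of lens epithelial cells.

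Car14, a carbonic anhydrase of Müller cells and pigment epithelium that faces the outside of the cell, was the marker with the smallest spread. Its log2 signals were 10.92 in control and 10.83 in UVB in experiment 1, and 10.89 and 10.86 in experiment 2. The differences were −0.09 and −0.03. The mean of −0.06 (standard error 0.034, 95% interval −0.20 to 0.075) had an unadjusted p of 0.21 from limma and was exceeded by 65.5% of all probe sets. Of 18 further carbonic anhydrases and bicarbonate transporters, 5 were higher and 7 lower in both experiments, with a median of −0.04. Car9, the hypoxia-inducible member of the family, was lower by 0.58 and 0.34, and Car10, a member without enzyme activity, was higher by 0.52 and 0.39. Neither passed the thresholds. The signal of Car10 lay below the array median on all 4 arrays. Car12, another membrane-bound member named after its values were seen, was higher by 1.27 and 0.45, but stayed at or below the receptor reference on both control arrays.

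A wider set of glial genes was counted in the same way. Of 16 other measured genes of Müller glia, 8 were higher and 3 lower in both experiments, and the median log2 fold change was 0.025. All of them except Rlbp1, Gpr37, Lhx2 and Id4 lay above the 75th percentile of the probe sets on all 4 arrays. Which cells gave these high signals was not tested, so the median of the list need not describe glia. Rlbp1, the retinaldehyde-binding protein of Müller cells and of pigment epithelium, had the largest change, 0.77 and 0.64, from 7.68 and 7.75 in control to 8.45 and 8.39 in UVB. Its mean of 0.71, or 1.63-fold, lay under the fold threshold, at an unadjusted p of 0.00378 from limma (adjusted p = 0.357). Gpr37, a receptor found on Müller cells and oligodendrocytes, was higher by 0.20 and 0.31. Sox2 and Sox9, transcription factors of Müller cells named after their values were seen, had mean log2 fold changes of 0.02 and 0.075. Of 12 other measured astrocyte genes, 6 were higher and 3 lower in both experiments, with a median of 0.092. This list also holds Slc1a2, which was counted above with the glutamate genes. Atp1b2, a subunit of the sodium pump found in astrocytes and in photoreceptors, was higher by 0.54 and 0.96. Sparcl1, a secreted matricellular protein, was higher by 0.55 and 0.43. Gja1, the connexin of astrocytes and of lens epithelium, named after its value was seen, was lower by 0.16 and 0.15. S100b was above the receptor reference on 1 of 4 arrays and Fabp7 and Gjb6 on 0, and a change in these 3 astrocyte genes, named for their low signals, could not be measured with confidence.

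Markers of other cells of the eye were higher on the same irradiated arrays, and their part in the values of the glial genes was not tested. All 24 measured photoreceptor genes were higher in both experiments, with median differences of 0.66 and 1.06, and 3 of them passed the thresholds. Their summed linear signals were 12510 in control and 19470 in UVB in experiment 1, and 10480 and 23380 in experiment 2. The ratios of UVB to control were 1.56 and 2.23. The summed signals of the 8 glial markers were 10510 and 11400 in experiment 1, and 9454 and 12780 in experiment 2. Their ratios were 1.08 and 1.35. Most of the glial sum was Apoe and Glul, and without them the other 6 markers had ratios of 0.982 and 1.08. Genes of high signal weigh most in a linear sum, and among these 6 they were Car14 and Aqp4. The ratios of the 6 therefore say little about Slc1a3 and Abca8a. In size, the difference was larger in experiment 2 for 5 of the 8 glial markers and for 23 of the 24 photoreceptor genes. Of 13 genes of the pigment epithelium, 12 were higher in both experiments (medians 0.82 and 0.97), 5 passed the thresholds, and their summed signals went from 3235 to 3378 in control up to 6877 to 7220 in UVB. All 24 photoreceptor genes lay above the receptor reference on every array, and none of their signals or those of the glial markers was at 0.

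Inner retinal neurons, among which the bodies of Müller cells lie, were counted as well. Of 22 measured genes, 17 were higher in both experiments and 0 lower, with median differences of 0.20 and 0.15. Slc6a9, a glycine transporter of amacrine cells, had differences of 0.21 and 0.71, equal to those of Slc1a3 within 0.01. Its controls read 10.39 and 10.14 and its irradiated arrays 10.60 and 10.85. Calb2, the calretinin gene of amacrine and ganglion cells, had 0.75 and 0.16, the reverse order. The summed signals of this list were 6731 in control and 7398 in UVB in experiment 1, and 6554 and 7634 in experiment 2. Their ratios were 1.1 and 1.16. Of the 22 genes, 15 lay above the receptor reference on all arrays.

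Macrophages and microglia are another source of Apoe. Of 15 measured genes of these cells, 11 were higher and 2 lower in both experiments, with median differences of 0.16 and 0.11, and 5 had an unadjusted p under 0.05 as higher and 1 as lower. Lyz2, the lysozyme of macrophages, was higher by 0.39 and 0.97, and Cd68, a lysosomal protein of phagocytes, by 0.45 and 0.73. Of the 15 genes, 10 lay above the receptor reference on all arrays, among them Lyz2, Cd68, Csf1r, Cx3cr1 and Tmem119. The microglial gene P2ry12 and the macrophage genes Aif1, Adgre1, Ptprc and Itgam lay at or below it on all 4 arrays. Apart from Lyz2 and Cd68, these genes were named after their values were seen. The summed signals of the list were 1658 in control and 1938 in UVB in experiment 1, and 1603 and 2026 in experiment 2. Their ratios were 1.17 and 1.26. The part of these cells in the values of Apoe was not tested, and Apoe itself was not counted in these sums.

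Among the remaining lists, 7 genes of the ciliary body and iris had medians of 0.19 and 0.59, with 6 higher in both experiments. Optc, the opticin gene of the nonpigmented ciliary epithelium, was higher by 0.25 and 1.06, and Zic2 by 0.23 and 0.73, near the values of Apoe. Of 7 oligodendrocyte genes, the myelin-forming glia of the optic nerve, 3 were higher and 2 lower in both experiments (medians 0.03 and 0.02), and 3 lay above the receptor reference on every array. Medians were −0.065 and −0.095 for 8 endothelial genes and 0.33 and −0.09 for 7 genes of cornea and conjunctiva. For 8 genes of lens epithelium they were −0.02 and 0.005, and for 14 lens fiber genes −0.02 and −0.06. The median of all probe sets was −0.01 in experiment 1 and −0.02 in experiment 2, and that of the 8 glial markers 0.12 and 0.26. No test was made between these lists.

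**Figure D3:**
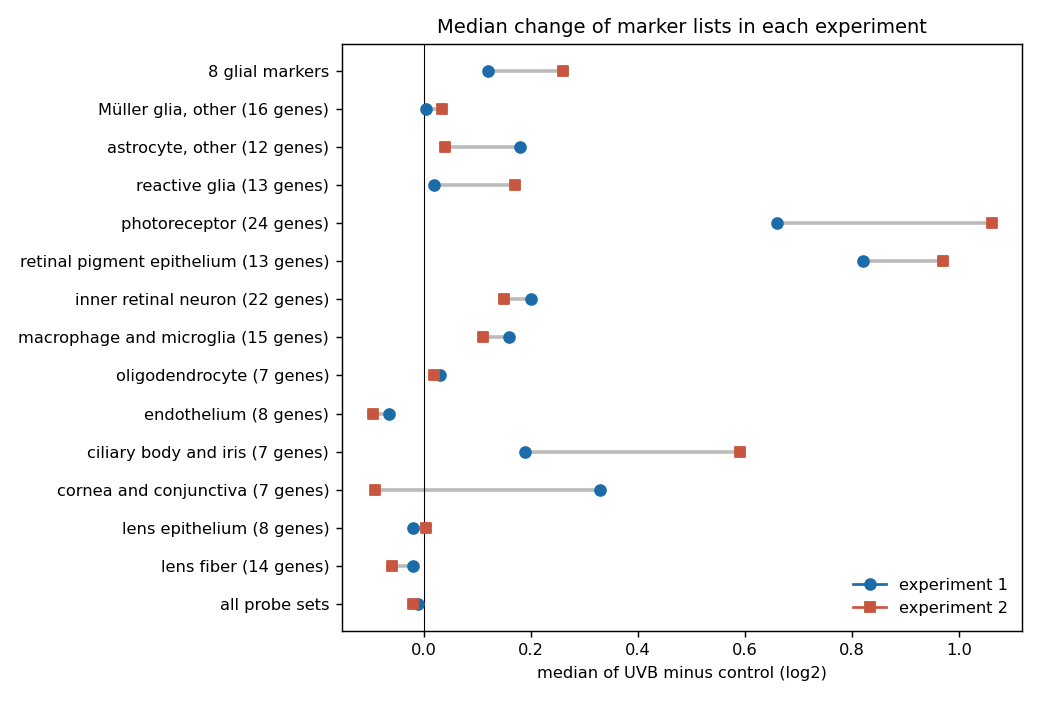
Median of UVB minus control in log2 units for the 8 glial markers and other marker lists, as circles for experiment 1 and squares for experiment 2, with a grey bar between them. The glial markers, at 0.12 and 0.26, lie between the lists of photoreceptor and pigment epithelium genes at the right and those of lens genes near 0.

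**Figure D4:**
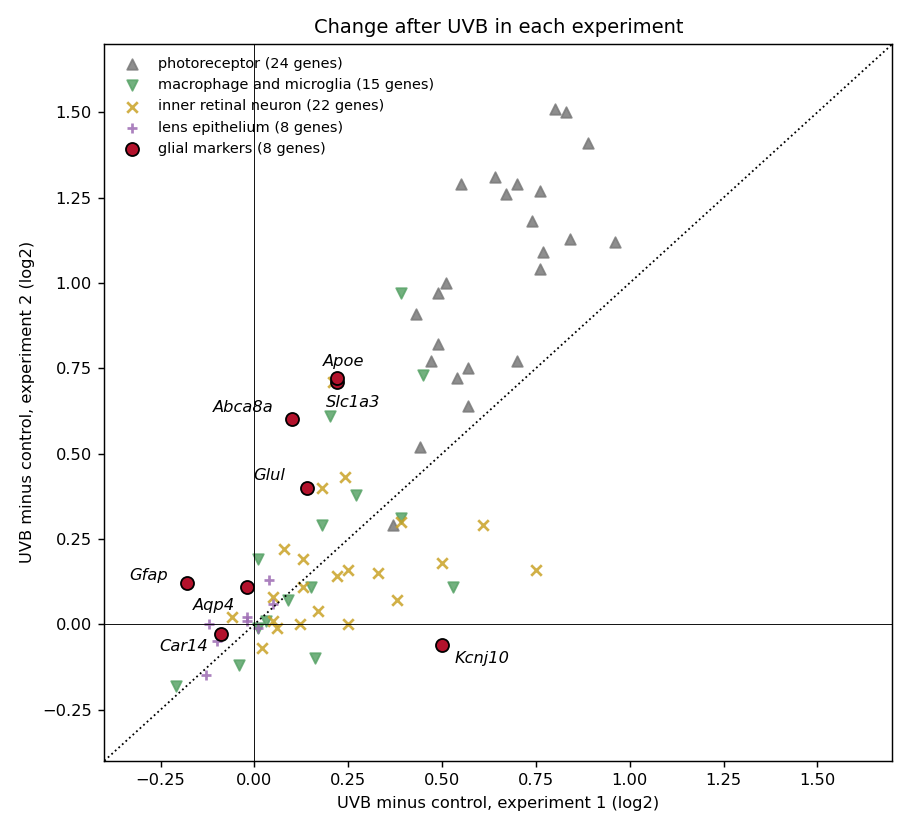
UVB minus control in experiment 1 (horizontal) and experiment 2 (vertical), both in log2 units, for single genes, with equal changes on the dotted line. Slc1a3, Apoe, Abca8a and Glul lie above the line and to the left of most photoreceptor genes, Kcnj10 lies apart at 0.50 and −0.06, and Aqp4, Gfap and Car14 lie near 0 with the lens epithelium genes.

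Because the study put Otx2, a homeodomain factor, at the center of the UVB response, the promoters of the markers were read for TAATCC or its reverse complement GGATTA, the core that Otx2 and its relative Crx recognize. RefSeq promoters (GRCm38.p6) of 7 of the 8 markers were used, with 9 start sites, and the 250 bases before each start were searched on both strands. The motif was found before 2 of these 9 starts, 1 of the 3 of Apoe and that of Car14. Among all 32851 promoters of the table it was found in 6.25%. The promoters of Apoe and Car14 are shown because they hold the motif, and that of Slc1a3 because the gene had values close to those of Apoe and its promoter holds no match. Capitals mark the motif, which begins 80 bases before the start in Apoe (chr7:19699189-19699438, minus strand) and 61 bases before it in Car14 (chr3:95904686-95904935, minus strand). The Slc1a3 window is chr15:8710808-8711057, minus strand.
Apoe: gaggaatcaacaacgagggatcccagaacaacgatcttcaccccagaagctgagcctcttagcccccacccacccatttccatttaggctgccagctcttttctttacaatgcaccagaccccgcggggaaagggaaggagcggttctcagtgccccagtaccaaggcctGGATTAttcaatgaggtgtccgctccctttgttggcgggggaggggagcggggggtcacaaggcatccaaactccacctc
Car14: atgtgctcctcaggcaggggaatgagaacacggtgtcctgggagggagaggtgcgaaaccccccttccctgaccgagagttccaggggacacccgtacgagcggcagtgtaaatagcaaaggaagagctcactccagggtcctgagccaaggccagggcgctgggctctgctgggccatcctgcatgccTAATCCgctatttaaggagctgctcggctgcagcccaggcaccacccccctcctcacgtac
Slc1a3: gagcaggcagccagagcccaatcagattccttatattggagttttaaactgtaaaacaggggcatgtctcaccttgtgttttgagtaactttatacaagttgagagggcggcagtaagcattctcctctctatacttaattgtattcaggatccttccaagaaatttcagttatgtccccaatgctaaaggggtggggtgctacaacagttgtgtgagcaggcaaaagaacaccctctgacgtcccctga
The mean log2 fold changes of the gene pair with the motif were 0.47 for Apoe and −0.06 for Car14. Both 95% intervals included 0 (−0.21 to 1.15 and −0.20 to 0.075). Glul and Abca8a, which were higher like Apoe, had no match in these windows. A match of these letters is a description and shows no binding, and its part in the changes was not tested.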

How the data were processed

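Mouse lens epithelia were measured on 4 arrays. Per the labels, the authors used Affymetrix Expression Console and deposited normalized log2 signals per probe set, rounded to 2 decimals (version and summarization: not given in the sources used here). A further step before deposit made the experiment means equal. The array is named as a human one in the methods, but its probe sets carry mouse symbols. Of 28944 probe sets, 21789 had 1 symbol, 1621 several and 5534 none. Symbols were compared with RefSeq (GRCm38.p6) by gene identifier, and 0 differed.

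The deposited values were fitted with limma 3.58.1 (R 4.3.3), two-sided, over all probe sets, with Benjamini-Hochberg adjustment. The experiment was a block (titles number experiment 2 only, and arrays without a number were taken as experiment 1) because both eyes of each mouse were compared, which leaves 1 residual degree of freedom. Same-numbered arrays deviated from their group means with a correlation of −0.998, as equal experiment means produce. The number of arrays limits the precision, and 0.333 is the smallest exact permutation p that 2 arrays per group allow when the pairing is ignored. With arrays kept in their pairs, fewer rearrangements exist and the smallest p is higher.

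The markers, 17 other gene lists and tests were chosen with earlier results of these data known. Where genes of a list are named, they were drawn from those past the thresholds. Otherwise they came from the 2 with the largest mean change of the same sign in both experiments, above the receptor reference on all arrays. No gene was named for oligodendrocytes, endothelium, cornea and conjunctiva, or lens fibers, which are given as counts or medians only. Photoreceptor and pigment epithelium genes are given as counts, except Otx2, on which the study centers. Alternatives were no block, a trend or robust prior in limma, a paired t-test, other scalings, a level filter, averaged probe sets, other thresholds and leaving out each array. The other Glul probe set was added after the data were seen.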

Additional observations from a re-analysis of the deposited data

How the results depend on the processing

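In 104 combinations of a marker and an alternative, 0 had an adjusted p under 0.05 and 2 turned the direction of the mean change, both for Gfap. Leaving out each array in turn, in a fit without the block since no residual degree of freedom is left with it, gave Gfap values from −0.10 to 0.045 (0.045 without either array of experiment 1). Without 1 array of experiment 2, Abca8a (0.35) was at 0.23, Kcnj10 (0.22) at 0.36 and Aqp4 (0.045) at 0.01 or 0.015, and without 1 of experiment 1, Kcnj10 was at 0.08 and Aqp4 at 0.08 or 0.075. The number of markers with an unadjusted p under 0.05, 0 with the replicate block, was 1 with no replicate block (Glul; 38.1% of all probe sets), 3 with quantile normalization (14.9%) and 3 with a robust prior (17.3%), in both cases Glul, Slc1a3 and Apoe, and the cause was not tested. The median log2 fold change of the 8 markers, 0.24, was 0.12 in experiment 1 alone. The count of markers higher in both experiments was 4, and 5 with quantile normalization or equal 75th percentiles, which added Aqp4. With 2 arrays a group, the 95% intervals of the main probe sets of all 8 markers included 0. That of the other Glul probe set, 0.029 to 0.61, did not.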
